A study of Rattus norvegicus with 18 samples.

Results

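The effect of experimental autoimmune myasthenia gravis (EAMG) on gene expression in extraocular muscle (EOM), the muscle that turns the eyeball, was set against its effect in the diaphragm (DIA), the main muscle of breathing, and the extensor digitorum longus (EDL), a fast muscle of the lower leg. The measure was the interaction, that is the change (EAMG minus control, in log2 signal) in EOM minus the mean of the changes in DIA and EDL. All 18 arrays of the series entered it, in the groups EOM EAMG, EOM control, DIA EAMG, DIA control, EDL EAMG and EDL control with 3 arrays each, and of 31042 probe sets for rat transcripts the 10982 whose signal reached 400 on 3 or more arrays were tested. EAMG rats were female Lewis rats of 6 to 8 weeks that received a single injection of acetylcholine receptor (AChR) from the electric ray (40 µg) in complete Freund's adjuvant with added killed mycobacteria. Control rats were of the same strain and sex and received the adjuvant with mycobacteria but no AChR, so the adjuvant was common to all 6 groups. Muscles were taken 6 weeks after the injection. The RNA of an array came from a pool of rats, whose number is given as 3 in the sample labels and as 4 to 5 in the methods of the study, and no label says which arrays of different muscles came from the same rats. A p-value therefore measured the spread between pools.

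In myasthenia gravis, antibodies against the AChR remove receptors from the muscle endplate and damage it, so that transmission from nerve to muscle fails and the muscle weakens. Extraocular muscles are often the first to weaken in patients. They differ from limb and trunk muscle in that their fibres hold myosins found elsewhere mainly in embryonic muscle, fire at very high rates and lie in the orbit beside lipid-secreting glands, fat and a mucous epithelium. A dissected pool of eye muscle can hold some of these tissues, and in whole-muscle RNA a smaller number of cells of a type cannot be told apart from less RNA per cell.

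Markers of EOM and EDL matched the labels, while those at hand for DIA set it apart from EOM more than from EDL. Myh13, the myosin heavy chain particular to extraocular muscle, had a signal of 17345 to 27950 on the 6 EOM arrays, against 5.43 to 36.5 on the DIA and 208 to 323 on the EDL arrays. Hoxa10, a position gene of the hindlimb, had 1577 to 2298 on EDL arrays and 191 at most on the others. The summed signal of 3 position genes of the diaphragm and forelimb level was 1216 to 1505 on DIA arrays. It was 952 to 1054 on EDL arrays and 60.7 to 159 on EOM arrays. Median signals of the 18 arrays lay between 128.74 and 162.55, and 27.9% to 31.1% of probe sets reached 400. The spread between arrays of a group had a median SD of 0.167 in EOM, 0.197 in DIA and 0.210 in EDL, in log2 signal. The spiked poly-A control RNA averaged 586 on EOM EAMG 2 and 842 on DIA EAMG 2, against 11357 to 27513 on the other 16 arrays. The ratio of 3' to 5' GAPDH signal, which rises when RNA is degraded, was 2.66 on DIA EAMG 3 and 1.06 to 1.33 on the others. At the signal minimum, 372 of the tested probe sets reached 400 on exactly 3 arrays, and 473 others, which were left out, reached it on exactly 2.

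Across all probe sets the change in EOM went with that in the other muscles, and few probe sets set EOM apart. Over the 10982 probe sets, which share the same libraries, the EOM change and the mean of the DIA and EDL changes had a Pearson r of 0.54 and a Spearman rank correlation of 0.51, as a description. Of 121 probe sets that rose in both DIA and EDL (limma, adjusted p under 0.05 in each), 118 lay above 0 in EOM, with a median log2 change of 0.51, and 27 of them rose there. Of 76 that fell in both, 71 lay below 0 in EOM, with a median of -0.44, and 16 fell. The median change of these probe sets in DIA and EDL was 0.91 and -0.87, which their selection on those arrays enlarges, and none of them passed the interaction test. The interaction passed the test (limma, Benjamini-Hochberg adjusted p under 0.05) in 14 probe sets, 0.127% of those tested. It was higher in EOM in 11 (0.1%) and lower in 3 (0.0273%). At an unadjusted p under 0.05 there were 997 (9.08%), of which 513 (4.67%) were higher and 484 (4.41%) lower.

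**Figure D1:**
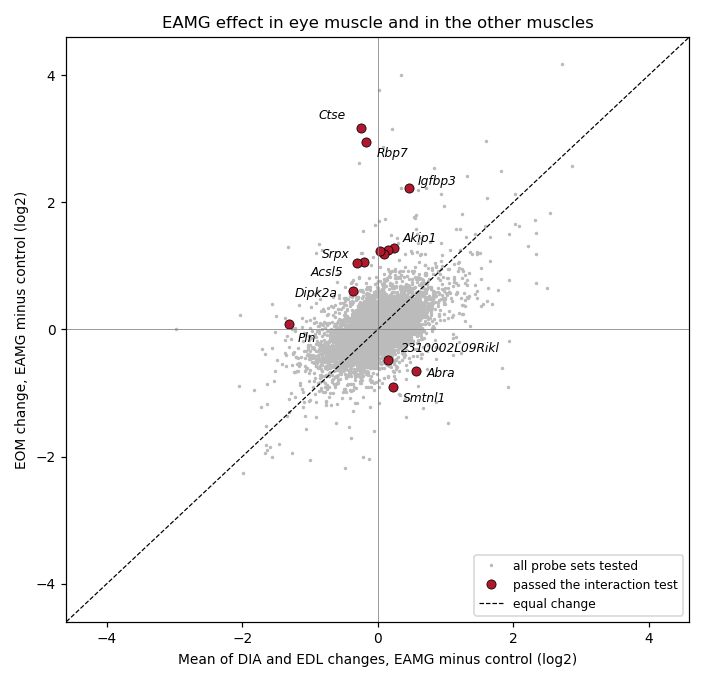
Change in EOM (EAMG minus control, log2 signal) against the mean of the changes in DIA and EDL, for 10982 probe sets, each point 1 probe set and the dashed line equal change. The 14 red points passed the interaction test, with Ctse and Rbp7 near 3 in EOM and near 0 in the others, and Pln near 0 in EOM and below 0 in the others.

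The 14 probe sets stood for 11 genes. In EOM the interaction was higher for Dipk2a, Ctse, Rbp7, Akip1, Acsl5, Pln, Igfbp3 and Srpx, and lower for Smtnl1, Abra and 2310002L09Rikl. Akip1 was represented by 4 of the probe sets. EOM EAMG and EOM control did not overlap in any of the 14, where 25.01% of tested probe sets had no overlap, but the same arrays had entered the test. The EOM change itself passed in 12 of the 14, the exceptions being Pln and Abra. The DIA change passed in 3 and the EDL change in 4. Among all tested probe sets 1.65% passed for EOM (1.03% rose and 0.619% fell), 3.48% for DIA (2.04% and 1.44%) and 7.47% for EDL (3.76% and 3.71%). Against the muscles taken singly, the EOM change differed from the EDL change in 11 of the 14 and from the DIA change in 2, Ctse and Pln. These contrasts, which share the EOM arrays, passed in 0.137% and 0.0273% of tested probe sets. The EDL change differed from the DIA change for Pln alone of the 14, where 0.0182% of probe sets passed.

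**Figure D2:**
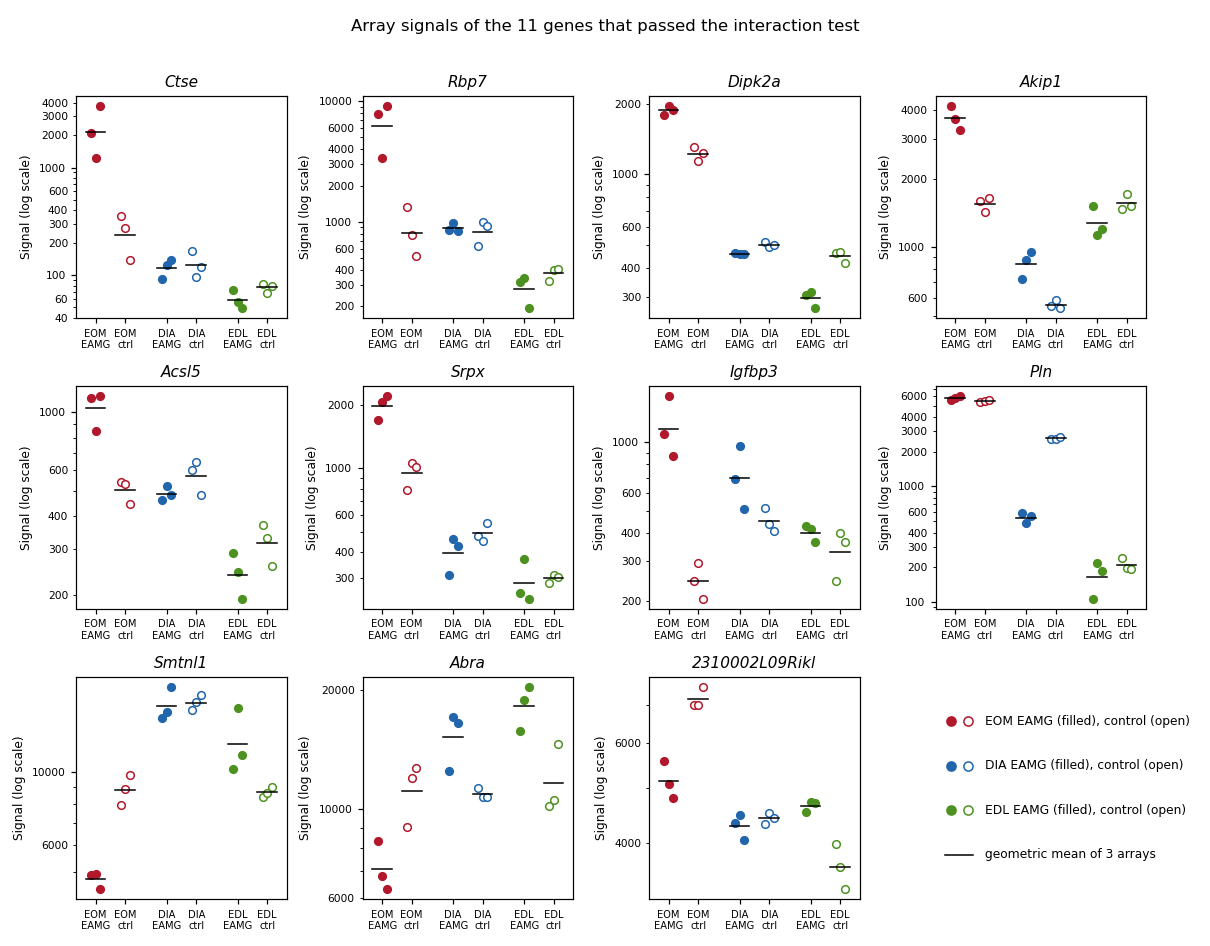
Signal on each array (log scale) of the 11 genes, with EAMG arrays filled and control arrays open in EOM (red), DIA (blue) and EDL (green), and the geometric mean of 3 arrays as a bar. For Akip1 the probe set with the lowest p is drawn. Ctse and Rbp7 are high only on the EOM EAMG arrays, and Pln is low in DIA EAMG beside DIA control.

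**Figure D3:**
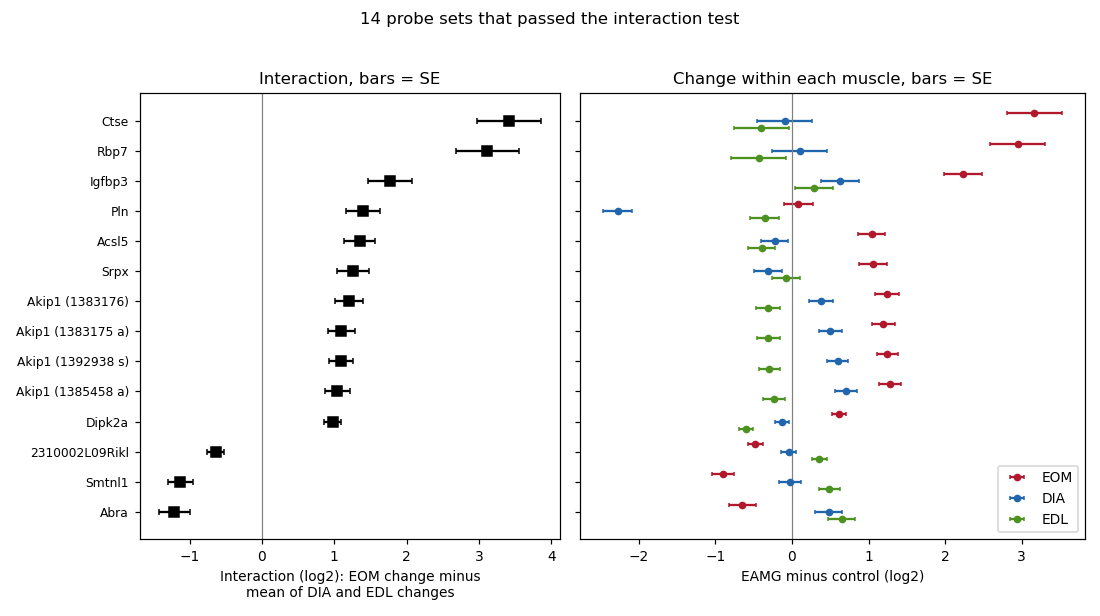
Interaction (left) and the change within EOM, DIA and EDL (right) for the 14 probe sets that passed, in log2 signal with the standard error of limma as bars. The interaction runs from -1.21 for Abra to 3.41 for Ctse.

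Start-site sequences are shown for a gene of each pattern, Rbp7, whose change lay in EOM, Pln, whose change lay in DIA, and Smtnl1, which fell in EOM and rose in EDL. They are the 250 bases before and 50 after the start in RefSeq's rat assembly GRCr8, 5′ to 3′ on the strand of the gene. Capitals mark E-boxes (CANNTG, which reads the same on both strands), the site of MyoD, myogenin and other helix-loop-helix factors. Rbp7 lies on the minus strand at chr5:165177350-165177649, Pln on the plus strand at chr20:33172244-33172543, and Smtnl1 on the minus strand at chr3:90303687-90303986.
Rbp7: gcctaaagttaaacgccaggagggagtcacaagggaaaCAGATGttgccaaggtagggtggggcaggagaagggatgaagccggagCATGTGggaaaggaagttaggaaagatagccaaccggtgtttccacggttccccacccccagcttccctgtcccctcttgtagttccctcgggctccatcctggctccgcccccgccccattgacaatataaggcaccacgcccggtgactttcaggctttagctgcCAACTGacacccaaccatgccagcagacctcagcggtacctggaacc
Pln: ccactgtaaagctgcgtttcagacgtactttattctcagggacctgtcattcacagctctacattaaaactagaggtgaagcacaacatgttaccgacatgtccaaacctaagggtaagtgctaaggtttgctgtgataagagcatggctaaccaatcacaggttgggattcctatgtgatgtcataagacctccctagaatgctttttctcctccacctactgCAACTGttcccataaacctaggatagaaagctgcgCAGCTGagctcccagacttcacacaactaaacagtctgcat
Smtnl1: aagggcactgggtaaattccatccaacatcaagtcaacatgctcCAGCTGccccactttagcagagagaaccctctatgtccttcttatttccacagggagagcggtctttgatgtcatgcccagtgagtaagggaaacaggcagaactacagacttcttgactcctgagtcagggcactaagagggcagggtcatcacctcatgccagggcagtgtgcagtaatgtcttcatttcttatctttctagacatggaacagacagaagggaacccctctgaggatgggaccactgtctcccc
Of the 11 genes 10 had such a sequence, and 8 of the 10 held an E-box, against 72.1% of 33469 rat start-site sequences. The letters AGAACA, part of the glucocorticoid response element, were on either strand in 0 of the 10 and in 20.7% of all.

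Ctse and Rbp7 had the largest interactions of the 11 genes. Ctse encodes cathepsin E, an aspartic protease of endosomes found in stomach, other epithelia and immune cells. Its signal was 2090, 1232 and 3741 on the EOM EAMG arrays, against 351, 271 and 140 on the EOM control arrays. On DIA arrays it was 91.8, 125 and 137 in EAMG and 167, 96.4 and 119 in control. On EDL arrays it was 72.1, 55.7 and 49.4 in EAMG and 82.7, 68.7 and 79.8 in control. Every EOM EAMG array was above every other array of the series, and the groups overlapped in DIA and EDL, all below 400. The change was 3.17 in EOM, -0.10 in DIA and -0.40 in EDL, and the interaction was 3.41 (SE 0.44, adjusted p = 0.00647, limma). The gene reached 400 on the EOM EAMG arrays alone and so entered the test only through the group in which it was high, and with signals near background on the other arrays no fold is given for its interaction. The EOM change exceeded the DIA change by 3.26 (adjusted p = 0.0413) and the EDL change by 3.56 (adjusted p = 0.00657).

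Rbp7, a cytosolic carrier of retinol found in fat and endothelium, had a signal of 7876, 3413 and 9119 on the EOM EAMG arrays, against 1319, 777 and 521 on EOM control. It was 859, 971 and 848 on DIA EAMG and 627, 994 and 925 on DIA control, and 321, 345 and 194 on EDL EAMG and 325, 401 and 411 on EDL control. The EOM groups did not overlap, and the groups in the other muscles did. The changes were 2.95, 0.10 and -0.44, and the interaction was 3.12 (SE 0.44, adjusted p = 0.0108, limma), 8.68-fold. The difference from EDL passed (3.39, adjusted p = 0.00748) and that from DIA had 2.85 (adjusted p = 0.0889).

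Acsl5, which activates long-chain fatty acids for storage or oxidation, had 1137, 844 and 1150 on EOM EAMG, against 539, 529 and 446 on EOM control. On DIA EAMG it had 462, 520 and 484, against 600, 645 and 481 on DIA control, and on EDL EAMG 288, 245 and 193, against 368, 329 and 257 on EDL control. The gene rose in EOM (1.04, adjusted p = 0.0068) and lay at -0.23 in DIA and -0.40 in EDL, and the interaction was 1.35 (SE 0.22, adjusted p = 0.0235, limma).

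Markers of tissue other than muscle were read beside these genes. Of 32 markers of surface and glandular epithelium with a probe set, 10 had all 3 EOM EAMG arrays above all EOM control arrays (9.32% of all 14217 genes with a probe set did), 0 had them below (10.2% of all genes), and 19 were under 400 on every EOM array. Ctse itself is counted in the 32 and in the 10. Summed over 31 markers without Ctse, the signal was 5412, 3414 and 14729 on EOM EAMG and 4507, 2918 and 2414 on EOM control. The sum was 3029 to 3918 on DIA EAMG and 3086 to 4562 on DIA control, and 1834 to 1954 on EDL EAMG and 1290 to 1872 on EDL control. EOM EAMG 3 stood apart, with Epcam, an adhesion protein of epithelia, at 1382 against 275 and 157 on the other EOM EAMG arrays and 130, 106 and 41.3 on EOM control. Pigr, the epithelial transporter of antibodies, was at 2729 on that array and between 83.7 and 185 on the other EOM arrays. Not every marker of the list was high there. The keratins Krt4 and Krt13 were at 3.29 and 13.6 on EOM EAMG 3, for each the lowest of the EOM arrays. Ctse was high on all 3 EOM EAMG arrays, highest on EOM EAMG 3 and lowest on EOM EAMG 2. The summed signal of the markers had the same order, but so had Rbp7 and Acsl5, and the order of 3 arrays was not tested. When any array was left out the interaction of Ctse was 3.01 at the lowest, which was the fit without EOM EAMG 3. Of pigment cell markers, Dct, an enzyme of melanin synthesis, had 527, 223 and 913 on EOM EAMG and 113, 76.2 and 48.8 on EOM control, while Tyr, Pmel and Mlana were at 48.2 or less on every EOM array. Retinal markers were under 400 on every EOM array in 10 of 11. The summed signal of 15 fat cell markers was 33127 to 38780 on EOM EAMG and 27266 to 29788 on EOM control, higher without overlap. It was also higher without overlap in EDL, at 21000.4 to 40225 on EAMG and 17572 to 19883 on control. The DIA groups overlapped, at 49802 to 66739 on EAMG and 42164 to 50311 on control. The summed signal of 14 endothelial markers was 12674 to 14010 on EOM EAMG and 17312 to 18209 on EOM control, lower without overlap. It was 12472 to 15292 on DIA EAMG and 12791 to 17372 on DIA control, and 8805 to 9894 on EDL EAMG and 9748 to 12726 on EDL control. The part of other tissue in the interactions was not tested.

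Genes of fat synthesis and of the lipid-secreting glands of the orbit had the highest median of the lists with at least 5 genes tested, though 0 of them passed the interaction test. Of 24 such genes with a probe set 14 were tested. Their interaction was above 0 in 12 and below 0 in 2, with a median of 0.57, against 3327 above and 3877 below 0 and a median of -0.02 among all 7204 genes. At an unadjusted p 7 were higher, where 4.33% of all genes were. Their median change was 0.63 in EOM, -0.07 in DIA and 0.10 in EDL, and 3 rose in EOM, where 1.05% of all genes did. Thrsp, a regulator of fat synthesis, had 3963, 1859 and 3931 on EOM EAMG, against 536, 328 and 234 on EOM control. Its DIA signals were 914, 2189 and 1020 in EAMG and 915, 3226 and 622 in control, so that the DIA groups overlapped over a wide range, and its EDL signals were 188, 205 and 211 in EAMG and 197, 251 and 78.3 in control. Its interaction was 2.95 (SE 0.68, adjusted p = 0.119, limma). Fabp5, a fatty acid carrier of epidermis and glands, had 1996, 1901 and 3693 on EOM EAMG and 1097, 809 and 634 on EOM control, with an interaction of 1.77 (SE 0.34, adjusted p = 0.0589). Fasn, the fatty acid synthase, had 1683, 1941 and 1663 on EOM EAMG and 927, 652 and 553 on EOM control. DIA control 2 stood apart in this group, with Fasn at 4177 against 812 and 588 on the other DIA control arrays and Scd, a fatty acid desaturase, at 3771 against 894 and 595. For Scd the EOM change was 0.00, and the interaction of 2.98 came from changes of -2.75 in DIA and -3.21 in EDL. Its EAMG arrays were at 723, 388 and 23.7 in DIA and at 104 or less in EDL. Aadac, a lipase of liver and glands, had 1116, 426 and 1321 on EOM EAMG and 190, 36.1 and 22.3 on EOM control, and 61.7 at the highest on DIA and EDL arrays (interaction 3.66, adjusted p = 0.471), so that it too entered the test through EOM EAMG alone. Both Aadac and Scd are counted in the 12 above 0 and in the median of the list. The median of the list lay between 0.48 and 0.65 when any array was left out. The summed signal of the 24 genes was 24190 to 28045 on EOM EAMG and 14734 to 18285 on EOM control, and whether gland tissue entered the pools was not tested.

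Dipk2a had the lowest p. It encodes a secreted protein of a family related to kinases. Its signal was 1785, 1959 and 1885 on EOM EAMG, against 1315, 1136 and 1236 on EOM control. It was 462, 457 and 458 on DIA EAMG and 514, 491 and 500 on DIA control, and 307, 315 and 270 on EDL EAMG and 461, 469 and 420 on EDL control. The groups did not overlap in any muscle, and the EAMG arrays were the higher ones in EOM and the lower ones in DIA and EDL. The gene rose in EOM by 0.61 (adjusted p = 0.00324) and fell in EDL (-0.60, adjusted p = 0.00277), with -0.13 in DIA (adjusted p = 0.463). The interaction was 0.98 (SE 0.12, adjusted p = 0.00369, limma), a response 1.97-fold higher in EOM.

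Srpx and Igfbp3 are secreted proteins. Srpx, which holds sushi repeats and is made by connective tissue cells, had 1696, 2068 and 2192 on EOM EAMG and 790, 1058 and 1016 on EOM control. It had 310, 461 and 429 on DIA EAMG and 475, 451 and 553 on DIA control, and 255, 373 and 241 on EDL EAMG and 284, 311 and 306 on EDL control. Srpx rose in EOM by 1.06 (adjusted p = 0.00777), the groups overlapped elsewhere, and the interaction was 1.26 (SE 0.23, adjusted p = 0.0391, limma).

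Igfbp3 carries insulin-like growth factors in blood and tissue. By its dimmer probe set it had 1090, 1598 and 871 on EOM EAMG and 244, 293 and 204 on EOM control. It had 689, 969 and 510 on DIA EAMG and 514, 438 and 408 on DIA control, and 427, 413 and 363 on EDL EAMG and 244, 396 and 363 on EDL control. EOM EAMG had the highest mean of the EAMG groups and EOM control the lowest of the control groups. The interaction was 1.77 (SE 0.31, adjusted p = 0.032, limma). The brighter Igfbp3 probe set, at 2039, 1950 and 1480 on EOM EAMG and 488, 395 and 536 on EOM control, had the same direction and did not pass (0.97, SE 0.33, adjusted p = 0.335), with rises in EOM (1.94, adjusted p = 0.00114) and in DIA (1.21, adjusted p = 0.0234). The 2 probe sets of the gene thus disagreed on the call.

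Akip1, Pln, Smtnl1 and Abra act in kinase signalling, calcium handling and the contractile apparatus of muscle. Akip1 binds the catalytic subunit of protein kinase A and guides it within the cell. By its brightest probe set it had 4175, 3658 and 3260 on EOM EAMG and 1592, 1432 and 1638 on EOM control. It had 721, 875 and 955 on DIA EAMG and 549, 588 and 539 on DIA control, and 1520, 1128 and 1207 on EDL EAMG and 1472, 1706 and 1520 on EDL control. Akip1 rose in EOM (1.25, adjusted p = 0.000381) and in DIA (0.60, adjusted p = 0.0276), had a change of -0.29 in EDL, and had an interaction of 1.09 (SE 0.17, adjusted p = 0.019, limma). The other 3 Akip1 probe sets had interactions of 1.04 to 1.20 (adjusted p = 0.0235 to 0.0281). The EOM change exceeded the EDL change by 1.50 to 1.55 over the 4 probe sets (highest adjusted p = 0.00657) and the DIA change by 0.57 to 0.86, which did not pass.

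Pln, phospholamban, inhibits the calcium pump of the sarcoplasmic reticulum in heart and slow fibres until protein kinase A phosphorylates it. The interaction of Pln came from DIA. By its brighter probe set it had 5624, 5871 and 6004 on EOM EAMG and 5427, 5499 and 5577 on EOM control, so that the EAMG arrays lay a little higher without overlap, a change of 0.08 (adjusted p = 0.892). It had 585, 480 and 558 on DIA EAMG and 2559, 2595 and 2670 on DIA control, and 108, 220 and 188 on EDL EAMG and 243, 199 and 193 on EDL control. The gene fell in DIA (-2.27, adjusted p = 3.29e-05), and the interaction was 1.40 (SE 0.23, adjusted p = 0.0259, limma). The EOM change exceeded that in DIA by 2.36 (adjusted p = 0.00223) and that in EDL by 0.44 (adjusted p = 0.614). The dimmer Pln probe set had an interaction of 0.96 (adjusted p = 0.0639).

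Smtnl1, a smoothelin-like protein that in mouse is phosphorylated by cyclic-nucleotide-dependent kinases in smooth and fast skeletal muscle, had 4881, 4931 and 4429 on EOM EAMG and 7937, 8915 and 9786 on EOM control. It had 14548, 15228 and 18104 on DIA EAMG and 15371, 16266 and 17078 on DIA control, and 10233, 15667 and 11291 on EDL EAMG and 8403, 8642 and 9003 on EDL control. The gene fell in EOM (-0.90, adjusted p = 0.00382) and rose in EDL (0.49, adjusted p = 0.047), with -0.03 in DIA. The interaction was -1.13 (SE 0.17, adjusted p = 0.019, limma).

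Abra binds actin in the sarcomere and activates serum response factor. It had 8308, 6806 and 6308 on EOM EAMG and 9019, 11965 and 12720 on EOM control. It had 12524, 17077 and 16468 on DIA EAMG and 11321, 10740 and 10732 on DIA control, and 15746, 18885 and 20328 on EDL EAMG and 10227, 10555 and 14587 on EDL control. The EAMG arrays were the lower ones in EOM and the higher ones in DIA and EDL, with no overlap in any muscle. The changes were -0.65 in EOM (adjusted p = 0.0802), 0.48 in DIA (adjusted p = 0.136) and 0.65 in EDL (adjusted p = 0.0363). The interaction was -1.21 (SE 0.21, adjusted p = 0.0372, limma).

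The remaining gene, 2310002L09Rikl, had 5592, 5095 and 4814 on EOM EAMG and 7023, 7016 and 7546 on EOM control. It had 4343, 4484 and 4052 on DIA EAMG and 4329, 4517 and 4421 on DIA control, and 4531, 4730 and 4706 on EDL EAMG and 3982, 3630 and 3319 on EDL control. The gene fell in EOM (-0.48, adjusted p = 0.0158) and rose in EDL (0.36, adjusted p = 0.0339), and the interaction was -0.64 (SE 0.12, adjusted p = 0.0443, limma). Its other tested probe sets had interactions of -0.56 (adjusted p = 0.119) and -0.81 (adjusted p = 0.298).

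The calls depended on single arrays to different degrees. Dipk2a and Ctse passed in each of the 18 fits that left out 1 array (highest adjusted p = 0.0231 and 0.0248). These fits kept the probe sets selected on all 18 arrays. Ctse reached the minimum signal on the EOM EAMG arrays alone, so without any 1 of them it had too few such arrays to be selected. For Ctse the fits without an EOM EAMG array therefore cannot show that the call is independent of that array. Rbp7 passed in 15, and was lost without EOM EAMG 1, EOM control 2 or EOM control 3 (adjusted p up to 0.0599). Smtnl1 passed in 14 and was lost without EOM EAMG 1, EOM EAMG 3, EOM control 2 or EOM control 3 (up to 0.107). The brightest probe set of Akip1 passed in 14 and was lost without EOM EAMG 1 or any EOM control array (up to 0.0744), and the other Akip1 probe sets passed in 9 to 12. Acsl5 passed in 12 and was lost without EOM EAMG 1, EOM EAMG 3, any EOM control array or DIA control 2 (up to 0.116). Pln passed in 10 and was lost without any EOM array, DIA control 2 or DIA control 3 (up to 0.116). Igfbp3 passed in 7 only, without EOM EAMG 3, any DIA EAMG array, EDL EAMG 1, EDL EAMG 2 or EDL control 1, and had up to 0.148 in the others. Srpx passed in 5, without any DIA EAMG array, EDL EAMG 1 or EDL EAMG 2 (up to 0.141 in the others). Abra passed in 4, without EOM control 1, DIA EAMG 1, EDL EAMG 1 or EDL control 3 (up to 0.148). 2310002L09Rikl passed in 3, without DIA EAMG 3, EDL EAMG 1 or EDL control 1 (up to 0.194). No interaction of the 14 changed sign in these fits. Over all probe sets, 2 passed without EOM control 2 or EOM control 3, 3 without EOM EAMG 1, 5 without EOM control 1 or DIA control 2, 8 without EOM EAMG 3, 9 without DIA control 3, 25 without DIA EAMG 1 and 48 without EDL EAMG 1. Without a minimum signal 0 passed in limma, with a lowest adjusted p of 0.0899 and 1733 of 31042 probe sets at an unadjusted p under 0.05. With each array centred on its median 4 passed, namely Ctse, Rbp7, Dipk2a and Acsl5, all higher and 0 lower. At an unadjusted p under 0.05, 287 were then higher and 625 lower, against 513 higher and 484 lower with the deposited scaling.

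Gene lists of muscle pathways were read in the same way, each by its count and median beside those of all 7204 genes (7 called higher, 0.0972%, and 3 lower, 0.0416%, by the brightest probe set). Of 597 list members tested only Ctse, which stands in 2 lists, and Pln passed. The proteasome, which degrades ubiquitin-tagged proteins, was below 0 in nearly every subunit. Its interaction was below 0 in 30 of 33 subunits, with a median of -0.32 and a range of -0.65 to 0.15, and 0 passed. At an unadjusted p 14 were lower, where 5.07% of all genes were. The median change was -0.02 in EOM, 0.32 in DIA and 0.30 in EDL, and 0 subunits rose in EOM, 1 in DIA and 4 in EDL, where 1.05%, 2.26% and 3.97% of all genes did. The mean log2 signal of the 33 was 11.92, 11.88 and 11.81 on EOM EAMG and 11.84, 11.89 and 11.90 on EOM control. It was 11.98, 12.26 and 12.16 on DIA EAMG and 11.78, 11.81 and 11.89 on DIA control, and 12.13, 12.14 and 12.51 on EDL EAMG and 11.89, 11.89 and 12.02 on EDL control. EAMG arrays were above the control arrays in DIA and EDL without overlap, and the EOM groups overlapped. Psmd13, a lid subunit of the regulatory particle, had 1780, 1300 and 1525 on EOM EAMG and 1850, 1586 and 1850 on EOM control, against 1861, 2067 and 2055 on DIA EAMG and 1465, 1659 and 1570 on DIA control (interaction -0.50, SE 0.14, adjusted p = 0.236, limma). Psme1 and Psme2, of the activator induced by interferon, lay at 0.15 and 0.10.

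Ubiquitin ligases and other atrophy and autophagy genes leaned the same way, with 16 of 23 below 0 and a median of -0.16. Their median change was 0.05 in EOM, 0.34 in DIA and 0.32 in EDL. Trim63, the muscle ubiquitin ligase MuRF1, had 4880, 2767 and 1797 on EOM EAMG and 1715, 2110 and 2272 on EOM control, while it rose in DIA (1.39, adjusted p = 0.0437) and EDL (1.31, adjusted p = 0.0361). Its interaction was -0.83 (SE 0.43, adjusted p = 0.593). Fbxo32, the ligase atrogin-1, had changes of 0.13, 1.21 and 1.36 in EOM, DIA and EDL. Eif4ebp1, a repressor of translation, rose in DIA (1.05) and EDL (1.18) and had 0.22 in EOM, with an interaction of -0.89 (adjusted p = 0.363). Ctsl, the lysosomal protease cathepsin L, rose in DIA (0.88) and EDL (1.61) and had 0.38 in EOM, with an interaction of -0.86 (SE 0.24, adjusted p = 0.236).

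**Figure D4:**
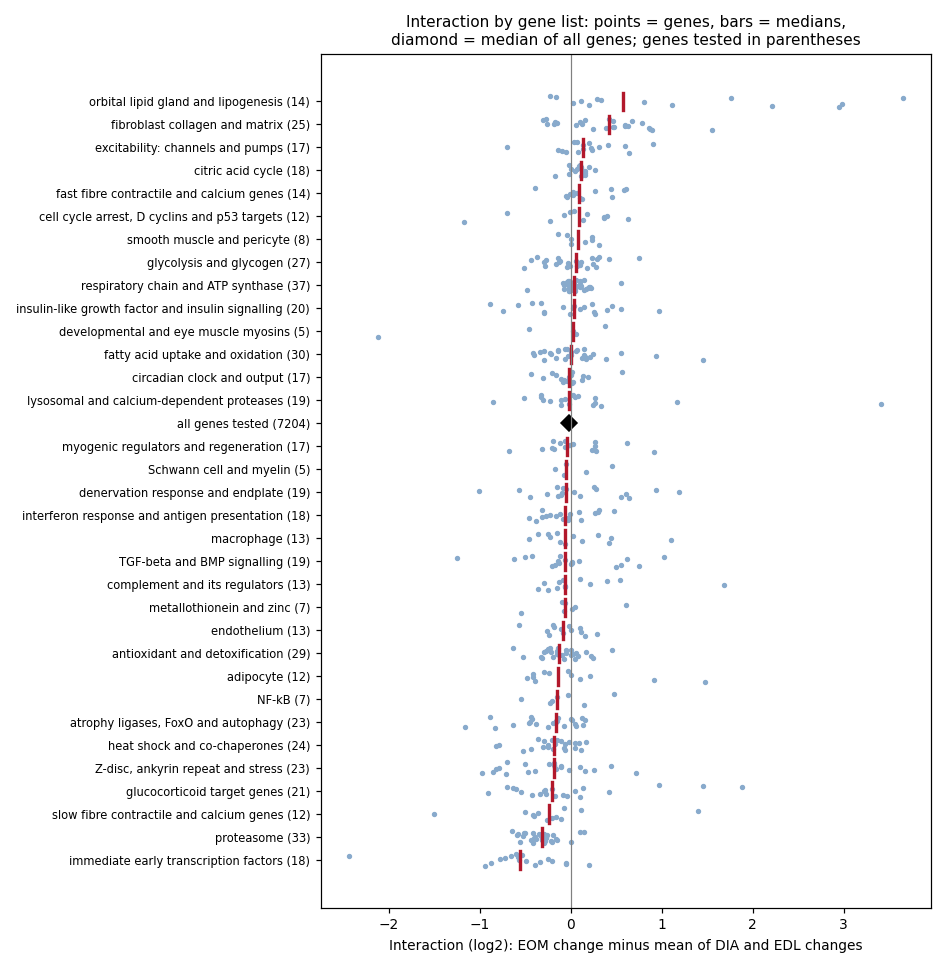
Interaction (log2) of the tested genes of each list, with a point for each gene, a bar for the list median and a diamond for the median of all 7204 genes, for lists with at least 5 genes tested. Lipid synthesis has the highest median, 0.57, and immediate early factors the lowest, -0.56.

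Immediate early transcription factors, which muscle activity and stress induce within minutes, had the lowest median of the lists with at least 5 genes tested. Of 18 tested, 17 were below 0, with a median of -0.56, 0 passed, and 2 were lower at an unadjusted p, where 5.07% of all genes were. Their median change was 0.03 in EOM, 0.38 in DIA and 0.77 in EDL. In EOM 0 changed, where only 1.05% of all genes rose and 0.722% fell. In DIA 2 rose and in EDL 5, where 2.26% and 3.97% of all genes did. Nr4a1, an orphan nuclear receptor, had 2483, 2143 and 1967 on EOM EAMG and 2227, 2701 and 2904 on EOM control. It had 3757, 4094 and 5278 on DIA EAMG and 2765, 3590 and 3156 on DIA control, and 7719, 4976 and 8365 on EDL EAMG and 3895, 5227 and 7313 on EDL control. Its DIA groups did not overlap and the others did, and its interaction was -0.66 (SE 0.28, adjusted p = 0.494). Dusp1, a phosphatase of MAP kinases, had -0.61 (SE 0.26, adjusted p = 0.493). The mean log2 signal of the list lay between 9.97 and 10.12 on all 6 EOM arrays. It was 10.57 to 10.87 on DIA EAMG and 9.88 to 10.57 on DIA control, and 10.45 to 10.51 on EDL EAMG and 9.43 to 9.92 on EDL control. The list median stayed between -0.61 and -0.47 when any array was left out.

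Heat shock proteins and Z-disc proteins, which guard the sarcomere under load, were below 0 in 19 of 24 and 18 of 23 genes, with medians of -0.18 each. The median change of heat shock proteins was -0.14 in EOM, -0.15 in DIA and 0.14 in EDL. That of Z-disc proteins was 0.03 in EOM, 0.09 in DIA and 0.33 in EDL. For both lists DIA thus lay nearer to EOM than to EDL. When any array was left out the medians of the interaction lay between -0.24 and -0.14 for heat shock proteins and between -0.34 (without EOM EAMG 1) and -0.10 (without EOM EAMG 3) for Z-disc proteins. Csrp3, a LIM protein of the Z-disc, rose in DIA (1.25, adjusted p = 0.0478) and EDL (1.70, adjusted p = 0.00819), and had 0.61 in EOM. Ankrd1, a stress-induced ankyrin repeat protein, rose in DIA (2.44) and EDL (2.64), and in EOM it had 932, 932 and 772 on EAMG and 169, 293 and 299 on control arrays, a change of 1.83 (adjusted p = 0.0563). Ankrd23, of the same family, ran the other way, with 12271, 12233 and 10095 on EOM EAMG and 5303, 6280 and 6613 on EOM control. It rose in EOM by 0.93 (adjusted p = 0.000666), with 0.35 in DIA and 0.08 in EDL, and had an interaction of 0.71 (SE 0.15, adjusted p = 0.0641). Hspb1 and Hspb7, small heat shock proteins, rose in EDL by 0.72 and 1.19 and had -0.44 and -0.15 in EOM.

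Collagens and matrix proteins of fibroblasts were above 0 in 19 of 25 genes, with a median of 0.42 and 8 higher at an unadjusted p, where 4.33% of all genes were. The median lay between 0.28 and 0.53 when any array was left out. Their median change was -0.17 in EOM, -0.41 in DIA and -0.69 in EDL. In EOM 0 changed, where only 0.722% of all genes fell and 1.05% rose. In DIA 4 fell (1.29% of all genes), and in EDL 9 fell and 1 rose (3.43% and 3.97% of all genes). Col1a1, the main chain of fibrillar collagen, had 4566, 6481 and 9522 on EOM EAMG and 5864, 5672 and 5909 on EOM control. It had 3078, 1991 and 1305 on DIA EAMG and 5188, 6157 and 4979 on DIA control, and 3324, 1794 and 1704 on EDL EAMG and 6278, 5685 and 4366 on EDL control. EAMG arrays were below all control arrays in DIA and EDL, and spread on both sides of control in EOM. The interaction was 1.55 (SE 0.38, adjusted p = 0.142, limma), and that of Col1a2, its partner chain, was 0.89 (adjusted p = 0.389). Of 29 genes of the list with a probe set, the summed signal was 80554 to 97605 on EOM EAMG and 92961 to 99123 on EOM control.

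**Figure D5:**
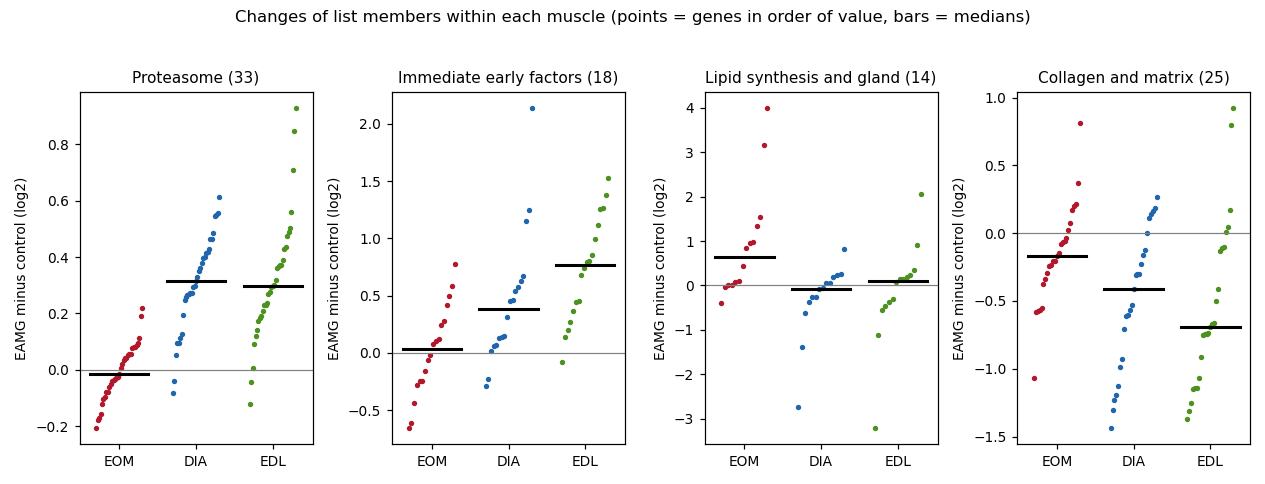
Change (EAMG minus control, log2) of each tested gene within EOM, DIA and EDL for 4 lists, in order of value, with the list median as a bar. Proteasome and immediate early medians lie near 0 in EOM and above 0 in DIA and EDL, while the lipid median is highest in EOM at 0.63.

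Slow-fibre genes were below 0 in 10 of 12, with a median of -0.24, and their median change was -0.10 in EOM, -0.18 in DIA and 0.47 in EDL. The EDL value rested on EDL EAMG 2, where the mean log2 signal of the list was 14.06, against 12.20 and 12.30 on the other EDL EAMG arrays and 12.17 to 12.36 on EDL control. Without that array the median change in EDL was -0.07, and the interaction had a median of -0.05 with 5 above 0 and 7 below. Pln was the exception that passed. Fast-fibre genes had a median of 0.09, with 10 of 14 above 0, and -0.06 with 5 above 0 without EOM EAMG 1 and 0.26 with 13 above 0 without EOM EAMG 3. Pvalb, the calcium buffer of fast fibres, fell in DIA (-1.21, adjusted p = 0.00122) and had -0.20 in EOM (interaction 0.58, SE 0.19, adjusted p = 0.322). Myh3, the embryonic myosin that eye muscle keeps in the adult, had 21307, 18923 and 15369 on EOM EAMG and 21364, 22521 and 19047 on EOM control. In DIA it rose, at 168, 165 and 225 on EAMG and 15.0, 82.9 and 11.6 on control arrays, all below 400. Its interaction of -2.12 (SE 0.77, adjusted p = 0.389) thus set a large signal against values near background.

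Genes of the endplate and the response to denervation were divided, with 9 of 19 above 0 and a median of -0.06 (0.08 without EOM EAMG 3). Runx1, a transcription factor induced in denervated muscle, had 2432, 1610 and 2959 on EOM EAMG and 426, 622 and 516 on EOM control. It had 1059, 677 and 1403 on DIA EAMG and 435, 457 and 504 on DIA control, and 383, 884 and 447 on EDL EAMG and 289, 274 and 384 on EDL control. It rose in EOM (2.14, adjusted p = 0.002), with 1.11 in DIA and 0.77 in EDL, and the interaction was 1.19 (SE 0.38, adjusted p = 0.316). Chrna1, the AChR subunit that holds the main antibody target, had 6662, 5176 and 6133 on EOM EAMG and 2588, 2508 and 2596 on EOM control. It rose in EOM (1.22, adjusted p = 0.00418), with 0.67 in DIA and 0.49 in EDL, and had an interaction of 0.64 (SE 0.24, adjusted p = 0.409). Dok7, an activator of the endplate kinase MuSK, had 1070, 1174 and 945 on EOM EAMG and 801, 626 and 804 on EOM control (interaction 0.60, adjusted p = 0.264). For these 3 genes the change was largest in EOM, and the difference from the other muscles did not pass. They show the higher side of the list only, as 10 of the 19 lay below 0, the lowest at -1.005. At an unadjusted p 4 were higher and 1 lower, where 4.33% and 5.07% of all genes were.

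Of 21 targets of the glucocorticoid receptor tested, 10 rose in EOM, 10 in DIA and 14 in EDL, where 1.05%, 2.26% and 3.97% of all genes did, with median changes of 0.85, 0.75 and 0.89. The interaction had a median of -0.20 (-0.30 to -0.08 when any array was left out) and passed in 0. At an unadjusted p 3 were higher and 2 lower, where 4.33% and 5.07% of all genes were. Angptl4, an inhibitor of lipoprotein lipase, had 498, 647 and 833 on EOM EAMG and 37.8, 22.8 and 52.1 on EOM control, and rose in all 3 muscles (4.18, 2.69 and 2.77 in EOM, DIA and EDL). Its interaction was 1.45 (SE 0.63, adjusted p = 0.508). Rasd1, a small GTPase induced by dexamethasone, rose in EOM, at 1045, 650 and 849 on EAMG and 126, 214 and 207 on control arrays, with 0.57 in DIA and 0.12 in EDL (interaction 1.89, SE 0.53, adjusted p = 0.232). Cebpd, a transcription factor of acute stress, went the other way, with 1.31 in EOM, 1.88 in DIA and 2.57 in EDL (interaction -0.92, adjusted p = 0.523).

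Cdkn1a, the cell cycle inhibitor p21, had 7347, 6840 and 6222 on EOM EAMG and 3808, 3742 and 4411 on EOM control. It had 4219, 4898 and 6643 on DIA EAMG and 1616, 2214 and 2587 on DIA control, and 1979, 2197 and 2158 on EDL EAMG and 367, 277 and 422 on EDL control. No groups overlapped and EAMG was higher in each muscle, and the log2 change was smallest in EOM (0.77, adjusted p = 0.0563), where the control level was highest. The interaction was -1.17 (SE 0.24, adjusted p = 0.0641), and the EOM change minus the EDL change was -1.82 (adjusted p = 0.00748). In TGF-beta and BMP signalling 9 of 19 were above 0, with a median of -0.07 (0.02 without EDL EAMG 1). Tgfb3, a ligand, had 979, 1210 and 1083 on EOM EAMG and 718, 564 and 654 on EOM control, a rise of 0.76 (adjusted p = 0.0128), with 0.06 in DIA and -0.03 in EDL (interaction 0.75, SE 0.17, adjusted p = 0.119).

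Lists of energy metabolism had 0 genes that passed. Acsl5, a gene of fatty acid use that did pass, was in none of the lists. The citric acid cycle was above 0 in 15 of 18 genes, with a median of 0.11, where 3327 of all 7204 genes were above 0, and 12 to 17 were above 0 when any array was left out. The respiratory chain was above 0 in 23 of 37, with a median of 0.03, but in 14 without EOM EAMG 1 and in 34 without EOM EAMG 3 (medians -0.06 and 0.14). Fatty acid oxidation was above 0 in 16 of 30 and glycolysis in 14 of 27, with medians of 0.00 and 0.06, and both medians changed sign among the fits that left out 1 array (-0.05 to 0.06 and -0.09 to 0.19). Hadh, an enzyme of fatty acid oxidation, had 2461, 2965 and 3224 on EOM EAMG and 2070, 1906 and 1982 on EOM control. It had 8122, 5757 and 8084 on DIA EAMG and 10314, 8381 and 10780 on DIA control, and 4064, 3800 and 4857 on EDL EAMG and 4952, 5228 and 6363 on EDL control. The EAMG arrays were the higher ones in EOM and the lower ones in DIA and EDL, and the interaction was 0.94 (SE 0.20, adjusted p = 0.0654). Immune lists had medians of -0.06 for macrophage genes, -0.06 for interferon response, -0.07 for complement and -0.15 for NF-kB, and these turned on single arrays. Without EOM EAMG 3 the macrophage and interferon medians were -0.34 and -0.34, with 2 of 13 and 1 of 18 above 0, and without EOM control 2 they were 0.17 and 0.11, with 9 and 12 above 0. Complement ran from -0.18 without EOM control 1 to 0.09 without EOM control 2, and NF-kB from -0.21 to -0.04. The summed signal of 18 macrophage markers was 51630 on EOM EAMG 3, 18439 and 19063 on the other EOM EAMG arrays and 12201 to 22639 on EOM control. Gpnmb, a glycoprotein of lipid-laden macrophages, was at 12524 on EOM EAMG 3, 1128 and 879 on the other EOM EAMG arrays and 445, 444 and 407 on EOM control, and without EOM EAMG 3 its interaction changed sign (1.10, then -0.12). In the red cell list, Hbb, a hemoglobin gene of blood held in the tissue, fell in EOM (-1.95, adjusted p = 0.0116) and DIA (-2.10, adjusted p = 0.00816), with -1.22 in EDL (adjusted p = 0.0502) and an interaction of -0.28 (adjusted p = 0.908).

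Among genes the study had measured by PCR, several had a difference between muscles that did not pass. Rgs2, a brake on G protein signalling, had 1440, 1460 and 1354 on EOM EAMG and 2688, 2743 and 2518 on EOM control. It had 1128, 1412 and 1808 on DIA EAMG and 987, 1243 and 1069 on DIA control, and 531, 461 and 529 on EDL EAMG and 905, 693 and 834 on EDL control. Rgs2 fell in EOM (-0.90, adjusted p = 0.0068) and EDL (-0.67, adjusted p = 0.0179) and had 0.38 in DIA, and the interaction was -0.76 (SE 0.19, adjusted p = 0.145, limma). Neu2, a cytosolic sialidase, fell in all 3 muscles (-1.22 in EOM, -1.44 in DIA and -1.9997 in EDL) with an interaction of 0.50 (adjusted p = 0.73). Pde4b, a phosphodiesterase of cyclic AMP, had 0.23 in EOM, 0.88 in DIA and 0.69 in EDL, none of which passed, and an interaction of -0.55 (adjusted p = 0.667). Nfkb1 had an interaction of 0.14 (adjusted p = 0.84). Bpifa1, a secreted protein of airway and glandular epithelium, had 1405, 829 and 537 on EOM EAMG and 408, 394 and 293 on EOM control, while it was under 400 on every DIA and EDL array (interaction 2.06, SE 0.89, adjusted p = 0.508).

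Muscle regulators gave further contrasts between EOM and 1 or both of the other muscles, each short of the threshold. Myod1, the myogenic transcription factor, had 1864, 1906 and 1630 on EOM EAMG and 1198, 1045 and 1335 on EOM control, and 1659, 796 and 1864 on EDL EAMG and 2013, 1962 and 3002 on EDL control. Its EAMG arrays were the higher ones in EOM and the lower ones in EDL, and the interaction was 0.91 (SE 0.32, adjusted p = 0.363). The DIA change of Myod1 lay between those of EOM and EDL, so that the contrast was mainly with EDL. Myf6, a regulator of the same family, rose in EDL (0.75, adjusted p = 0.0137) and had -0.21 in EOM (interaction -0.68, SE 0.20, adjusted p = 0.238). Grb14, an inhibitor of the insulin receptor, had 1429, 1557 and 1539 on EOM EAMG and 2985, 3036 and 2857 on EOM control. It fell in EOM (-0.97, adjusted p = 0.00103) and had -0.43 in DIA and -0.36 in EDL, with an interaction of -0.58 (SE 0.16, adjusted p = 0.232). Jph2, which joins the sarcoplasmic reticulum to the surface membrane, had 2667, 2584 and 2604 on EOM EAMG and 2301, 1903 and 2100 on EOM control, against 2591, 1747 and 2785 on DIA EAMG and 3686, 4413 and 3589 on DIA control (interaction 0.91, SE 0.25, adjusted p = 0.214). Fbp2, the muscle fructose bisphosphatase, fell in EDL (-0.995, adjusted p = 0.00564) and had -0.05 in EOM, with an interaction of 0.75 (SE 0.22, adjusted p = 0.249). Cxcl12, a chemokine of vessels and stroma, fell in all 3 muscles, at 2602, 3200 and 3230 on EOM EAMG and 6302, 6596 and 7323 on EOM control, with an interaction of -0.57 (SE 0.19, adjusted p = 0.346).

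Some genes outside the lists missed the threshold of the test by little, and these were chosen after their values were seen. Ptgds, an enzyme of prostaglandin D2 synthesis, had an interaction of 2.12 (SE 0.41, adjusted p = 0.0589), with 1.20 in EOM, -0.59 in DIA and -1.24 in EDL. Klk1, a kallikrein protease of glands, rose in EOM by 2.23 and in DIA by 1.21, and had an interaction of 1.52 (SE 0.33, adjusted p = 0.0836). Myom2, a protein of the M-band, rose in EOM by 1.14 (adjusted p = 0.00719), with -0.01 in DIA and -0.13 in EDL, and had 1.21 (SE 0.24, adjusted p = 0.0639). Tppp3, which binds tubulin, fell in EOM (-2.18), with -0.86 in DIA and -0.11 in EDL, and had -1.70 (SE 0.35, adjusted p = 0.0641). Smyd2, a methyltransferase, rose in EOM by 1.19 and in EDL by 0.47, with 0.34 in DIA, and had 0.78 (SE 0.16, adjusted p = 0.0641).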

How the data were processed

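Affymetrix rat expression arrays held 18 RNA pools, 3 of each muscle and treatment. The deposited intensity values were made by the authors with GCOS 2.0, which reduces the probes of a probe set to 1 signal per array and scales each array to a common target (a mean of 500 without the top and bottom 2%, as found in the values). The log2 of the signal was fitted with 6 group means in limma 3.58.1 (lmFit and eBayes, R 4.3.3) for the 10982 probe sets at 400 or more on at least 3 of 18 arrays, and p-values were adjusted over them by Benjamini-Hochberg. A fold change of a signal near background is uncertain, and the number of arrays limits the precision. Symbols came from GEO's platform annotation, which gave 1 symbol for 20826 of 31042 probe sets, several for 436 and none for 9780. Probe sets of a gene were not averaged, and a gene in a list was taken from its brightest tested probe set with 1 symbol. Genes named were those that passed, the members of each list with the smallest p, and those the study measured by PCR except Mt1a and Pax6. Pax6 was at 495 on EOM EAMG 3 and under 400 on every other array, so it was not tested. Fbxo32, Psme1, Psme2, Fasn, Scd and the markers of other tissues given singly were chosen after their values were seen. Members and lists were chosen with earlier results of these data known. Alternatives were the signal minimum, quantile normalization, median centring, 100 added to each signal, the replicate number as a block, array weights, a trend in eBayes and leaving out arrays. An exact permutation test of 3 arrays against 3 cannot go below 0.1 (two-sided), so p-values of single genes rest on limma. The fit was tested on simulated data. Python 3.11.15 with pandas 2.3.3 and matplotlib 3.10.9 made tables and figures.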

Additional observations from a re-analysis of the deposited data

Results flagged for a closer look

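The EAMG change differed between EOM and the mean of DIA and EDL in 14 probe sets (limma, Benjamini-Hochberg), which the results describe one by one. The contrasts of single muscles, which share arrays with it and with each other, added the following. EOM minus DIA was 3.26 for Ctse, and 2.36 and 1.71 for the probe sets of Pln. EDL minus DIA was 1.92 and 1.49 for the same probe sets of Pln. Set against EDL, the change in EOM was higher for Ctse (3.56), Rbp7 (3.39), Igfbp3 (1.94), Akip1 (1.50, 1.55, 1.52 and 1.54 by its 4 probe sets), Acsl5 (1.44) and Dipk2a (1.21).

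It was lower than in EDL for Cdkn1a (-1.82), Smtnl1 (-1.39), 2310002L09Rikl (-0.84), Bex1 (-1.45), Nol3 (-1.001) and a probe set without a symbol (-0.95). Bex1, an adaptor protein of neurons and regenerating muscle, rose in DIA (0.85) and EDL (1.38) and had a change of -0.07 in EOM. Nol3, an inhibitor of cell death abundant in heart and skeletal muscle, rose in EDL (0.95) and had -0.06 in EOM and 0.35 in DIA. Bex1 had an interaction of -1.19 (adjusted p = 0.0589, limma) and Nol3 of -0.70 (adjusted p = 0.086).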

How the results depend on the processing

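Counts of probe sets that passed (limma, Benjamini-Hochberg) moved more than the direction of the 14. These were, in the fit reported, 11 higher and 3 lower for the interaction, 3 for EOM minus DIA, 15 for EOM minus EDL, 2 for EDL minus DIA, and 181, 382 and 820 for the change within EOM, DIA and EDL. Without a minimum signal the interaction had 0 higher and 0 lower, EOM minus DIA 1, EOM minus EDL 4, EDL minus DIA 0, and EOM, DIA and EDL 39, 36 and 158. Quantile normalization gave 19 higher and 6 for EOM minus DIA. Median centring, which shifted the median of all probe sets by 0.17 in the DIA change, -0.07 in the interaction and -0.12 in EOM minus DIA, gave 4 higher and 0 lower, 23 for EOM minus EDL, 0 for EDL minus DIA and 788 for DIA. With 100 added to each signal there were 37 higher and 11 lower, 13 for EOM minus DIA and 49 for EOM minus EDL. Array weights gave 31 higher and 10 lower, 28 for EOM minus EDL, 444 for EOM and 462 for EDL. A trend in eBayes gave 25 higher and 10 lower, 5 for EOM minus DIA and 35 for EOM minus EDL. All 14 passed under quantile normalization, the added 100, weights, trend and the replicate block.

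With the replicate block there were 23 higher and 7 lower, 31 for EOM minus EDL and 0 for EDL minus DIA, but the numbers were not taken to pair the samples: deviations of same-numbered arrays correlated above 0.1 in 22 of 45 pairs (mean 0.09, -0.19 to 0.50), in 7 of 9 between EAMG and control of one muscle (mean 0.17), and in 16 of 90 pairs of other numbers. The methods give repeats of the experiment as the source of the replicates, and no label ties a number to a repeat. Leaving out the 2 arrays whose poly-A signal was low, there was 1 lower, 6 for EOM minus DIA, 0 for EDL minus DIA, 118 for EOM and 54 for DIA, and 8 of the 14 passed. Without these and the array of high GAPDH ratio, chosen after seeing the data, 0 were lower, with 0 for EOM minus DIA, 0 for EDL minus DIA, 120 for EOM and 9 for DIA, and 6 of the 14 passed. Leaving out each array in turn gave 2 to 36 higher, 0 to 12 lower, 2 to 6 for EOM minus DIA, 9 to 107 for EOM minus EDL, 0 to 5 for EDL minus DIA, and 63 to 221, 63 to 879 and 213 to 1283 within EOM, DIA and EDL. The interaction turned sign for genes that had not passed. Mitf had -0.021 with median centring and -0.039 to 0.12 when an array was left out (-0.039 without EOM EAMG 3, -0.015 without EOM control 1). Without EOM EAMG 3 Gpnmb had -0.12 (range -0.12 to 1.80), Jchain -0.51 (-0.51 to 1.54) and Slc39a8 -0.077 (-0.077 to 1.19), and Mt2A had 0.055 without the 3 arrays. The cause was not tested.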
